A study of Homo sapiens with 8 samples.

Results

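Cell cycle genes were read on 8 two-colour microarrays as 43 named genes of the 43317 genes on the array. They were taken by gene symbol and fall into 18 genes of DNA replication and S phase entry and 25 genes of mitosis. Each array compared Cy3-labelled RNA of mock cells with Cy5-labelled RNA of treated cells of the same line, and the values below are ratios of treated to mock RNA on the log2 scale unless another scale is named. The groups were PC3 cells with bisamide for 24 h, PC3 cells with bisamide for 48 h, C4-2 cells given miR-199-3p, PC3 cells given miR-125b-1-3p, 786-O cells given either strand of miR-532 (miR-532-5p or miR-532-3p), and T24 cells given either strand of miR-140 (miR-140-5p or miR-140-3p). PC3 and C4-2 are prostate cancer lines, 786-O is a renal cancer line and T24 a bladder cancer line, all grown in culture. Bisamide is a small molecule described as an inhibitor of pirin (PIR). The microRNAs (miRNAs) were transfected, each labelled by the name of a strand.

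Every group held 1 array, the dyes were never swapped and no test could be made, so no p-value is given. The labels call the mock cells of every array not transfected, so that the effect of the transfection itself and that of the miRNA cannot be told apart. A dye effect of a single gene and an effect of the treatment cannot be told apart either. The study's methods dissolve bisamide in DMSO, and whether the mock cells received DMSO is not stated. In bulk RNA of a culture, fewer cycling cells and less RNA per cycling cell cannot be told apart.

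A dividing cell builds its replication machinery in late G1, when the E2F transcription factors switch on genes for origin licensing, the MCM helicase and nucleotide supply, and copies its DNA in S phase. Genes of mitosis are switched on later, in S and G2, largely through CCAAT boxes and the CHR element that the DREAM, B-MYB and FOXM1 complexes bind. In a population of growing cells the RNA of both sets is widely used as a readout of how many cells are in cycle, and the sets can part when cells stop at different points of the cycle.

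The miRNA strands are shown by their mature sequences, from RefSeq (GRCh38.p14), because the seed, bases 2 to 8 from the 5′ end and written here in capitals, is the part by which a miRNA mainly chooses its targets. The label miR-199-3p fits both hsa-miR-199a-3p and hsa-miR-199b-3p, which have the same mature sequence.
miR-199-3p: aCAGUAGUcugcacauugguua
miR-125b-1-3p: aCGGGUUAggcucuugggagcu
miR-532-5p: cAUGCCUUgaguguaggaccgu
miR-532-3p: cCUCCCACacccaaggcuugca
miR-140-5p: cAGUGGUUuuacccuaugguag
miR-140-3p: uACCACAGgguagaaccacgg
The 6 seeds all differed, also within the miR-532 pair and the miR-140 pair, whose strands come from opposite arms of 1 hairpin each. Both miR-532 strands lie on the X chromosome, at chrX:50003167-50003188 and chrX:50003204-50003225, and the miR-140 strands at chr16:69933103-69933124 and chr16:69933142-69933162, all on the plus strand.

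Promoter windows from 250 bases before to 50 bases after the start site were given in RefSeq (GRCh38.p14) for 35 of the 43 genes, 15 of replication and 20 of mitosis. Some genes have several start sites, and a gene was counted when any of its windows held a motif. Both strands were searched for E2F-type motifs (TTTCCCGC, TTTGGCGC, TTTCGCGC or TTTGCCGC), CHR-type motifs (TTTGAA or TTCGAA) and CCAAT. Matches of 1 type may overlap. An E2F-type motif stood in 10 of the 15 replication promoters (66.7%) and 2 of the 20 mitosis promoters (10%), against 3.99% of the 27305 genes with a window. A CHR-type motif stood in 2 of 15 replication promoters (13.3%) and 14 of 20 mitosis promoters (70%), against 19.5% of all genes. CCAAT stood in 11 of 15 (73.3%), 18 of 20 (90%) and 39.7%, and CCAAT together with a CHR-type motif in 13.3%, 65% and 7.85%. The lists thus differed in these letters, which says nothing of whether a factor was bound in these cells.

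The promoters of 4 genes are shown with the motif matches in capitals, each as the 180 bases that end just before a start site. The capitals TTTC at the end of MCM3 are the first bases of an E2F-type match (TTTCGCGC) that runs past the start site. For replication they are the genes of the lowest ratios on any array that hold an E2F-type motif there, MCM6 and MCM3. For mitosis they are TOP2A, the gene of the lowest ratio on any array with a CHR-type motif there, and CDK1, the gene of the lowest ratio at 48 h of bisamide with one.
MCM6, chr2:135876444-135876623, minus strand: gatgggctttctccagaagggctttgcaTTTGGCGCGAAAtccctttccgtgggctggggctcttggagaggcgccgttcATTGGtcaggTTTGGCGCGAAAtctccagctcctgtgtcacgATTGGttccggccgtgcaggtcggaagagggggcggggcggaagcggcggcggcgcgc
MCM3, chr6:52284743-52284922, minus strand: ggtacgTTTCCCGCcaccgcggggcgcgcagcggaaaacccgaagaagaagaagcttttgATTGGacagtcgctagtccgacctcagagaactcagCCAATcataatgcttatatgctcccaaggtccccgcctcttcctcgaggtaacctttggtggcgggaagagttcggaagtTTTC
TOP2A, chr17:40417897-40418076, minus strand: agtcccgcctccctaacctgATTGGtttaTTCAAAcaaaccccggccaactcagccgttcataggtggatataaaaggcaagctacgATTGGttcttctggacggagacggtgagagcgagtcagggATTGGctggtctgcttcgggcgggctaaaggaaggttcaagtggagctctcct
CDK1, chr10:60778298-60778477, plus strand: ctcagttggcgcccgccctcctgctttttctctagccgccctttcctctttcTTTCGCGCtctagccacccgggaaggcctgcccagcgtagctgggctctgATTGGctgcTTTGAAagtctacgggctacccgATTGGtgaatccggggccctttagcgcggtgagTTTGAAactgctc
In MCM6 a pair of overlapping E2F-type matches starts 152 and 148 bases before the start site, and a second pair with the same letters starts 90 and 86 bases before it. CDK1 has 2 windows in the table, and the one shown holds an E2F-type match 128 bases and CHR-type matches 69 and 13 bases before its start.

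On each array, 15442 to 19241 genes were well above background in both channels, the condition for a ratio used here. Of the 344 values of the 43 genes, 342 met it, and no spot of these genes was saturated. The missing values were those of CDC6 on the miR-199-3p array and the miR-532-5p array, where CDC6 was not well above background in either channel. The SD over repeated spots of 1 probe had a median of 0.0389 to 0.0527 on the arrays. Spread between samples could be read only between the mock channels of a line. Over the 3 PC3 arrays the SD per gene had a median of 0.144 (range 0.0251 to 0.263, n = 3) on the log2 Cy3 scale. These mocks belong to the 24 h and 48 h bisamide arrays and the miR-125b-1-3p array, so that SD includes differences between the experiments. The median was 0.0224 for 786-O and 0.0346 for T24 (n = 2 each). None of these spreads covers the treated cultures. KLK3, a marker of C4-2, had a raw Cy3 signal of 13592 there and was not well above background in any other mock. PAX8 and PAX2, markers of renal cells, were brighter in the T24 mocks (raw Cy3 390 and 423 for PAX8, 551 and 619 for PAX2) than in those of 786-O (235 and 239, 124 and 112). PAX8 and PAX2 thus did not set 786-O above T24, as the labels of the lines would lead one to look for. The identity of the lines was not tested, and the cells are called T24 here as labelled. KRT7, listed for T24, was well above background in every mock. Its raw Cy3 was 438 and 443 in T24 against 237 and 228 in 786-O, and was highest in PC3 (2783 to 5907). CDH2, also listed for T24, was well above background there (237 and 242) but brighter in 786-O (1113 and 1092). CA9 and UPK1B, listed for 786-O and T24, were not well above background in any mock, and VIM was in all.

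The replication genes were lower than in mock with miR-532-5p, with bisamide at 24 h and with miR-140-5p, and the mitosis genes were lower with bisamide at 48 h, with miR-532-5p and with bisamide at 24 h. Set against the median of all genes of the same array, the median replication gene stood at −0.47 at 24 h and −0.29 at 48 h of bisamide, −0.08 for miR-199-3p in C4-2, −0.25 for miR-125b-1-3p in PC3, −0.57 for miR-532-5p against −0.26 for miR-532-3p in 786-O, and −0.35 for miR-140-5p against 0.05 for miR-140-3p in T24. The median mitosis gene stood at −0.35, −0.64, 0.03, −0.13, −0.42, 0.07, −0.06 and 0.11 on the same arrays in the same order. Hence the lists were both low with bisamide and with miR-532-5p. The median replication gene lay below the median mitosis gene on every array but that of 48 h of bisamide, by the most with miR-532-3p and miR-140-5p. When the arrays were centred on their median in place of the intensity-dependent loess fit, the median of all genes moved by up to 0.45 and most list medians moved upwards, some across 0. With bisamide the replication genes then stood at −0.19 at 24 h and −0.046 at 48 h, and the mitosis genes at −0.069 and −0.36. The replication genes were at 0.01 with miR-140-5p and 0.04 with miR-199-3p, and the mitosis genes at 0.12 for miR-125b-1-3p in PC3 and 0.25 for miR-140-5p in T24, on the other side of 0. The other lists kept their sign. Under that centring, every list set against the 3446 genes in the middle of the members' intensity range was within 0.144 of its first value. The replication genes then stood at −0.27 with miR-140-5p. Loess likewise takes off the typical ratio at each intensity, so this likeness was largely fixed by the method and is not a separate check.

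**Figure D1:**
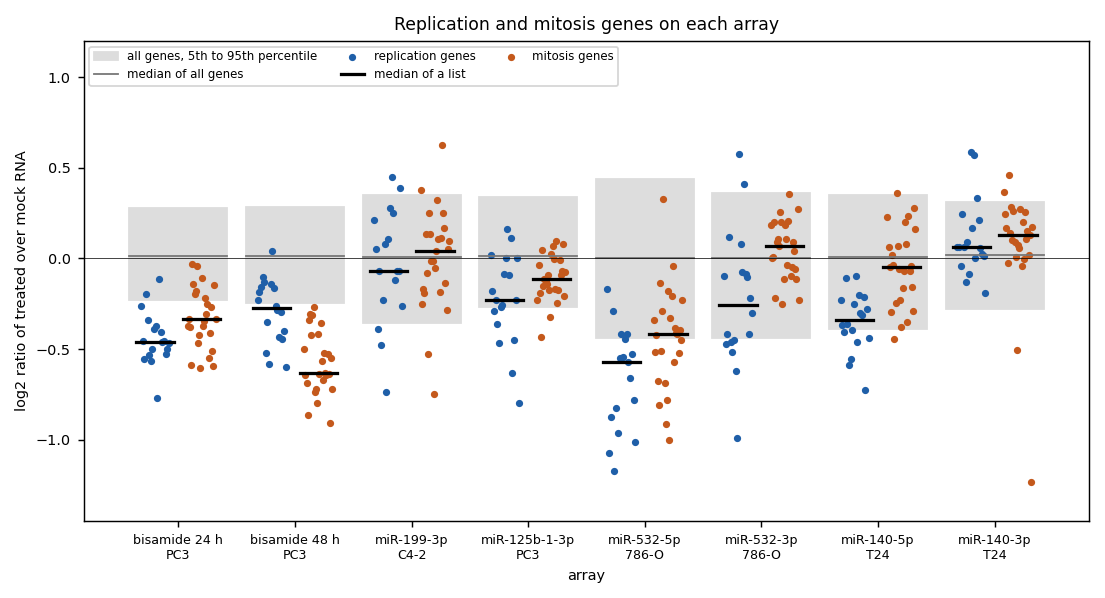
Log2 ratio of treated over mock RNA (vertical axis) of each replication gene (blue) and mitosis gene (orange) on the 8 arrays, with the median of each list (black bars), the median of all genes (grey line) and their 5th to 95th percentile (grey boxes). With bisamide at 48 h the mitosis genes sit below the replication genes (medians −0.63 and −0.27), and with miR-140-5p the order is the reverse (−0.05 and −0.34).

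Counts past 0.5 in size, a 1.41-fold difference, were read against the share of all measured genes past the same size. At 24 h of bisamide 5 of 18 replication genes and 5 of 25 mitosis genes were lower, where 0.4% of all genes were, and none was higher (1.05% of all). At 48 h 3 replication genes and 18 mitosis genes were lower, against 0.878% of all, and none was higher (0.915%). With miR-532-5p 12 of the 17 measured replication genes and 10 mitosis genes were lower, against 3.67%, and none was higher (3.6%). These 3 arrays held 53 of the 66 member values below −0.5. Over all genes, the values below −0.5 numbered 77, 167 and 575 on these arrays. On the others they numbered 429 (miR-199-3p), 165 (miR-125b-1-3p), 593 (miR-532-3p), 509 (miR-140-5p) and 191 (miR-140-3p). With miR-140-5p 3 replication genes and no mitosis gene were lower (2.89% of all) and no member was higher (1.74%). With miR-532-3p 3 replication genes and no mitosis gene were lower (3.84%), and 1 replication gene was higher (1.71%). With miR-125b-1-3p 2 replication genes and no mitosis gene were lower (0.883%), and none was higher (1.77%). With miR-199-3p 1 of 17 replication genes and 2 mitosis genes were lower (2.73%), and 1 mitosis gene was higher (1.76%), so this array had few members past 0.5 on either side. With miR-140-3p no replication gene and 2 mitosis genes were lower (1.09%), and 2 replication genes were higher (0.998%).

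These counts turned on the normalization. With median centring, and with the shift of all genes on each array taken off, the genes below −0.5 at 48 h of bisamide were 1 of replication and 4 of mitosis (1.76% of all genes), and at 24 h 1 and 0 (2.4%). On the array of miR-532-5p the counts were 13 and 11 (5.15%), close to those above. Over the 8 arrays, 18 replication and 17 mitosis values lay below −0.5 in that way and 9 and 18 above 0.5, in place of 29 and 37 below and 3 and 1 above. Set against genes of like intensity instead, the values below −0.5 were 32 and 37, with 3 replication and 21 mitosis genes at 48 h and 6 and 4 at 24 h, and 27.4% and 28.2% of all genes then lay below −0.5. With the scanner software's own ratio, 6 and 23 genes lay below −0.5 at 48 h (5.49% of all genes) and 11 and 7 at 24 h (5%).

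Large differences were rare. Past 1.0 there were 5 of the 342 member values, all lower than in mock, against 0.381% of all values of the 8 arrays in either direction. They were MCM6, MCM3, CDC45 and TOP2A with miR-532-5p and UBE2C with miR-140-3p. Past 1.5 there was no member value (0.0785% of all values). The study used that size for miRNA target lists from other arrays. Its scale may differ from that of the ratios here, which are pulled towards 0.

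**Figure D2:**
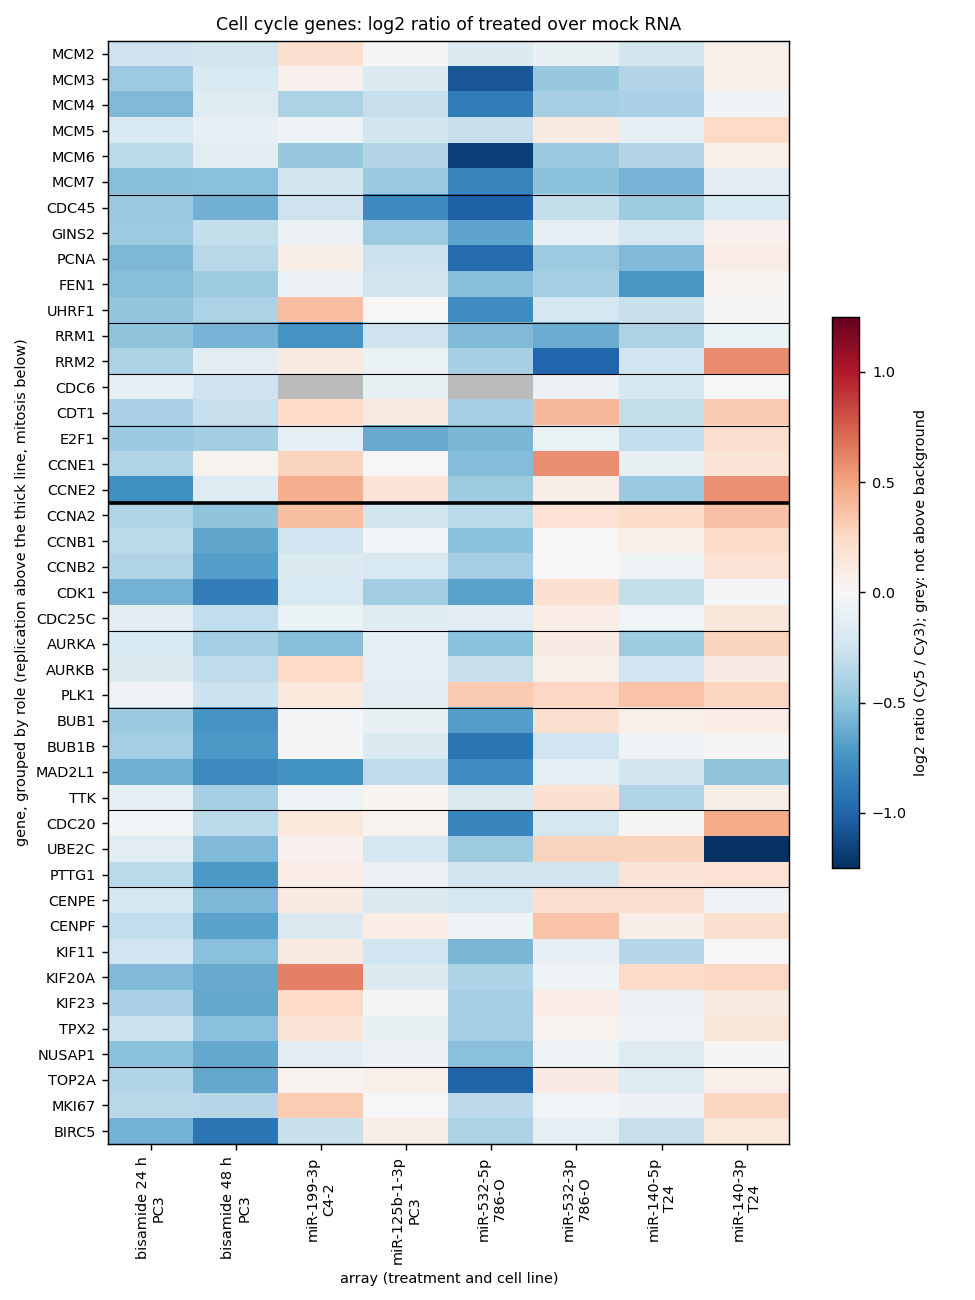
Log2 ratio of treated over mock RNA (colour, blue for lower and red for higher in treated cells) of the 43 genes, grouped by role, on the 8 arrays. Most blue lies in the bisamide and miR-532-5p columns. UBE2C with miR-140-3p (−1.23) is the darkest cell, and the grey cells are the CDC6 values not above background.

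The MCM2 to MCM7 proteins form the ring helicase that unwinds DNA at replication forks. MCM6 (probe at chr2:136598217-136598276, GRCh37) read −0.34 at 24 h and −0.13 at 48 h of bisamide, −0.48 for miR-199-3p in C4-2, −0.36 for miR-125b-1-3p in PC3, −1.17 for miR-532-5p against −0.46 for miR-532-3p in 786-O, and −0.36 for miR-140-5p against 0.06 for miR-140-3p in T24. With miR-532-5p this was a 2.25-fold lower level, with raw signals of 491 in Cy3 and 174 in Cy5, where the array of miR-532-3p had 475 and 457. MCM3 read −0.45, −0.19, 0.05, −0.18, −1.07, −0.47, −0.37 and 0.06 in the same order, and was thus also lowest with miR-532-5p. MCM4 (−0.87) and MCM7 (−0.83) were lowest there as well, but MCM2 (−0.17) and MCM5 (−0.29) differed little from mock. The 6 subunits of the ring therefore had a range of 0.999 on that array, which a common fold does not describe. MCM7 was below −0.5 on 5 arrays, at −0.53 and −0.52 with bisamide, −0.83 and −0.52 with the miR-532 strands and −0.59 with miR-140-5p. Its second, dimmer probe read −0.15, −0.07, −0.46, −0.35 and −0.20 on those arrays, so no value of that probe passed 0.5. With median centring and set against all genes, MCM7 itself stayed below −0.5 with miR-532-5p alone (−0.84), and stood at −0.073 and −0.045 with bisamide, −0.041 with miR-532-3p and 0.066 with miR-140-5p.

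CDC45 and GINS2 join the MCM ring to make it active, PCNA is the sliding clamp of the DNA polymerases, FEN1 trims the flaps of lagging-strand fragments, and UHRF1 guides the copying of DNA methylation. CDC45 read −0.47 and −0.60 at 24 h and 48 h of bisamide, −0.26 for miR-199-3p in C4-2, −0.80 for miR-125b-1-3p in PC3, −1.01 for miR-532-5p against −0.30 for miR-532-3p in 786-O, and −0.44 for miR-140-5p against −0.19 for miR-140-3p in T24. It was below 0 on all arrays and was the lowest of the 43 genes with miR-125b-1-3p. All 5 genes of this role were below −0.5 with miR-532-5p, from FEN1 (−0.53) to CDC45. FEN1 was the lowest member with miR-140-5p, at −0.73 or 1.66-fold lower, with raw signals of 221 in Cy3 and 182 in Cy5 against 241 and 407 on the array of miR-140-3p, where it read 0.03. PCNA read −0.57 and −0.35 with bisamide, −0.96 with miR-532-5p and −0.55 with miR-140-5p, and its second probe read −0.68, −0.44, −0.95 and −0.70. Both PCNA probes thus lay below mock by like amounts on these arrays. UHRF1 was at 0.39 with miR-199-3p and 0.00 with miR-125b-1-3p but at −0.78 with miR-532-5p.

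RRM1 and RRM2 are the large and small subunits of ribonucleotide reductase, which makes the deoxyribonucleotides for DNA synthesis, and RRM2 is the subunit that varies through the cycle. RRM2 read −0.39 and −0.14 with bisamide, 0.11 for miR-199-3p in C4-2, −0.09 for miR-125b-1-3p in PC3, −0.42 for miR-532-5p against −0.99 for miR-532-3p in 786-O, and −0.25 for miR-140-5p against 0.59 for miR-140-3p in T24. It was the lowest member with miR-532-3p (1.98-fold lower, raw Cy3 114 and Cy5 48.4) and the highest with miR-140-3p (1.503-fold higher, raw Cy3 304 and Cy5 804). RRM1 was below 0 on every array and below −0.5 with bisamide at 48 h (−0.58), miR-199-3p (−0.74), miR-532-5p (−0.55) and miR-532-3p (−0.62). On the array of miR-199-3p, RRM1 was the lowest replication gene while RRM2 stood at 0.11. RRM2 was dim in the C4-2 mock (log2 Cy3 6.58 after quantile normalization, against 9.67 for RRM1). The offset of the background correction pulls dim genes towards 0, so how far the subunits parted there is uncertain.

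CDC6 and CDT1 load the MCM ring onto origins. CDC6 lay between −0.26 and 0.00 on the 6 arrays where it was measured, but its signal was close to background and the offset of the background correction pulls dim genes towards 0. CDT1 ranged from −0.42 with miR-532-5p to 0.41 with miR-532-3p, and its other high values were those with miR-140-3p (0.33), miR-199-3p (0.25) and miR-125b-1-3p (0.11).

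E2F1 is the transcription factor at the head of the S phase programme, and cyclins E1 and E2 (CCNE1, CCNE2) activate CDK2 at its onset. E2F1 read −0.46 and −0.43 with bisamide, −0.12 for miR-199-3p in C4-2, −0.63 for miR-125b-1-3p in PC3, −0.57 for miR-532-5p against −0.09 for miR-532-3p in 786-O, and −0.31 for miR-140-5p against 0.21 for miR-140-3p in T24. It was thus the second lowest member with miR-125b-1-3p, after CDC45. CCNE1 read −0.37 and 0.04, 0.28, 0.00, −0.54, 0.58, −0.10 and 0.17 on the arrays in that order. It was the only member above 0.5 with miR-532-3p (1.49-fold higher) and was below −0.5 with the other miR-532 strand. CCNE2 read −0.77 at 24 h and −0.16 at 48 h of bisamide, 0.45 for miR-199-3p in C4-2, 0.16 for miR-125b-1-3p in PC3, −0.44 for miR-532-5p against 0.08 for miR-532-3p in 786-O, and −0.46 for miR-140-5p against 0.57 for miR-140-3p in T24. At 24 h it was the lowest of all 43 genes, 1.70-fold below mock. Its second probe, which was close to background (mean log2 intensity 6.17), read −0.29 there and 0.15 with miR-140-3p.

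Cyclin A2 (CCNA2) and the B cyclins (CCNB1, CCNB2) activate CDK1, the kinase that drives entry into mitosis, and CDC25C removes its inhibitory phosphates. CDK1 read −0.59 at 24 h and −0.87 at 48 h of bisamide, −0.19 for miR-199-3p in C4-2, −0.43 for miR-125b-1-3p in PC3, −0.67 for miR-532-5p against 0.20 for miR-532-3p in 786-O, and −0.29 for miR-140-5p against −0.02 for miR-140-3p in T24. Its probe spans an intron at chr10:62552004-62553650 (GRCh37). A second CDK1 probe, close to background (mean log2 intensity 6.08), read −0.24 at 48 h, the widest gap of any pair of probes of 1 member (0.62). CCNB1 read −0.34 and −0.64, −0.25, −0.04, −0.52, 0.00, 0.06 and 0.24 on the arrays in order, and its second probe read −0.44 at 48 h and −0.03 with miR-532-5p. At 48 h 4 of these 5 genes were below −0.5, with CDC25C at −0.31. CCNA2 was above 0 with miR-199-3p (0.38), miR-140-3p (0.37), miR-140-5p (0.23) and miR-532-3p (0.18).

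AURKA and PLK1 act at centrosomes and spindle poles, and AURKB with BIRC5 (survivin) belongs to the chromosomal passenger complex. AURKA read −0.19 and −0.42 with bisamide, −0.53 for miR-199-3p in C4-2, −0.12 for miR-125b-1-3p in PC3, −0.51 for miR-532-5p against 0.11 for miR-532-3p in 786-O, and −0.44 for miR-140-5p against 0.28 for miR-140-3p in T24. PLK1 read −0.04 and −0.27, 0.14, −0.14, 0.33, 0.26, 0.36 and 0.26. It was thus the highest member with miR-532-5p and the highest with miR-140-5p, on arrays where most members lay below it. Its brightest probe is annotated to an Ensembl transcript (ENST00000562272), and the second, also to an Ensembl transcript, read −0.03 and 0.08 there. AURKB lay between −0.31 and 0.25 on the 8 arrays.

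BUB1, BUB1B, MAD2L1 and TTK belong to the spindle checkpoint, which holds anaphase until all chromosomes are attached. MAD2L1 read −0.60 and −0.80 at 24 h and 48 h of bisamide, −0.74 for miR-199-3p in C4-2, −0.32 for miR-125b-1-3p in PC3, −0.78 for miR-532-5p against −0.12 for miR-532-3p in 786-O, and −0.23 for miR-140-5p against −0.51 for miR-140-3p in T24. It was below 0 on all arrays and below −0.5 on 5. With median centring and set against all genes it stayed below −0.5 on 3 of these, and stood at −0.38 at 24 h of bisamide and −0.27 on the miR-140-3p array. With miR-199-3p it was the lowest of the 43 genes (1.68-fold lower), where the other checkpoint genes lay between −0.05 and −0.01. BUB1B read −0.42 and −0.72 with bisamide and −0.91 with miR-532-5p, and BUB1 −0.46, −0.73 and −0.69. TTK was lowest at 48 h of bisamide (−0.42), followed by the miR-140-5p array (−0.38).

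CDC20 switches on the anaphase-promoting complex, UBE2C is the ubiquitin-conjugating enzyme that works with it, and PTTG1 (securin) is its substrate that holds the sister chromatids. UBE2C (probe at chr20:44445525-44445584, GRCh37) read −0.14 and −0.55 with bisamide, 0.05 for miR-199-3p in C4-2, −0.21 for miR-125b-1-3p in PC3, −0.45 for miR-532-5p against 0.27 for miR-532-3p in 786-O, and 0.28 for miR-140-5p against −1.23 for miR-140-3p in T24. The last was a 2.35-fold lower level and the lowest value of any member on any array, with raw signals of 2409 in Cy3 and 1931 in Cy5 against 2143 and 5060 on the array of miR-140-5p. On that same array of miR-140-3p CDC20 stood at 0.46 and PTTG1 at 0.18, so the low value was not shared by these partners. CDC20 was lowest with miR-532-5p (−0.81), and PTTG1 at 48 h of bisamide (−0.72).

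The spindle proteins and kinesins CENPE, CENPF, KIF11, KIF20A, KIF23, TPX2 and NUSAP1 build the spindle, move chromosomes and complete division. All 7 were below −0.5 at 48 h of bisamide, between −0.67 (CENPF) and −0.52 (TPX2, KIF11). At 24 h only KIF20A (−0.55) and NUSAP1 (−0.51) were. The second, dimmer probes of CENPF and KIF23 read −0.48 and −0.30 at 48 h. With miR-532-5p KIF11 (−0.57) and NUSAP1 (−0.52) were below −0.5, and CENPF stood at −0.04 (−0.28 on its second probe). KIF20A was the only mitosis gene above 0.5 on any array, at 0.63 with miR-199-3p (1.54-fold higher, raw Cy3 88.6 and Cy5 217).

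TOP2A untangles sister DNA, MKI67 (the Ki-67 antigen) coats mitotic chromosomes and is the common proliferation marker, and BIRC5 is survivin. TOP2A read −0.37 and −0.64 with bisamide, 0.04 for miR-199-3p in C4-2, 0.07 for miR-125b-1-3p in PC3, −1.004 for miR-532-5p against 0.10 for miR-532-3p in 786-O, and −0.16 for miR-140-5p against 0.06 for miR-140-3p in T24. It was the lowest mitosis gene with miR-532-5p, at 2.00-fold below mock. BIRC5 read −0.59 and −0.91, −0.28, 0.08, −0.40, −0.12, −0.29 and 0.13 in the same order and was the lowest member at 48 h of bisamide (1.87-fold lower). MKI67 read −0.35 and −0.36, 0.32, −0.00, −0.33, −0.04, −0.07 and 0.27, and none of its 8 values passed 0.5. Its second probe read −0.59 with miR-532-5p.

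The bisamide arrays were set side by side member by member. All members but CCNE1 (0.04 at 48 h) were below mock at both times, 42 of 43, against 31.6% of all genes. All 25 mitosis genes read lower at 48 h than at 24 h, with a median difference of −0.27 and a range from −0.41 (UBE2C) to −0.01 (MKI67), where 51.4% of all genes read lower at 48 h. Among the replication genes 3 of 18 read lower at 48 h and 15 higher, with a median difference of 0.11 and the widest for CCNE2 (0.61). The order of the lists was thus opposite at the times: the median replication gene lay below the median mitosis gene at 24 h and above it at 48 h. Each time was 1 array with its own hybridised mock RNA, and the labels do not say whether the mock cells were a shared culture. The mock cells differed between the times as well. On the log2 Cy3 scale after quantile normalization all 25 mitosis genes and 12 of 18 replication genes were lower in the 48 h mock than in the 24 h mock, where 49.7% of all genes were. The median difference was −0.25 for mitosis, with CCNB1 lowest (−0.42), and −0.11 for replication. The mock level of the mitosis genes and their ratio to it were thus both lower at 48 h, by medians of like size. The mock is the denominator of the ratio, so each ratio depends on both the mock and the treated cells of its array. The part of the mocks in the difference between the times was not tested. For BIRC5, the raw Cy3 signal was 10032 at 24 h and 8735 at 48 h, and its raw Cy5 signal 13960 and 9579. Raw Cy5 signals exceeded raw Cy3 signals for bright genes in general: with median centring alone, the genes in the middle of the members' intensity range had a median log2 ratio of 0.72 at 24 h and 0.71 at 48 h.

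**Figure D3:**
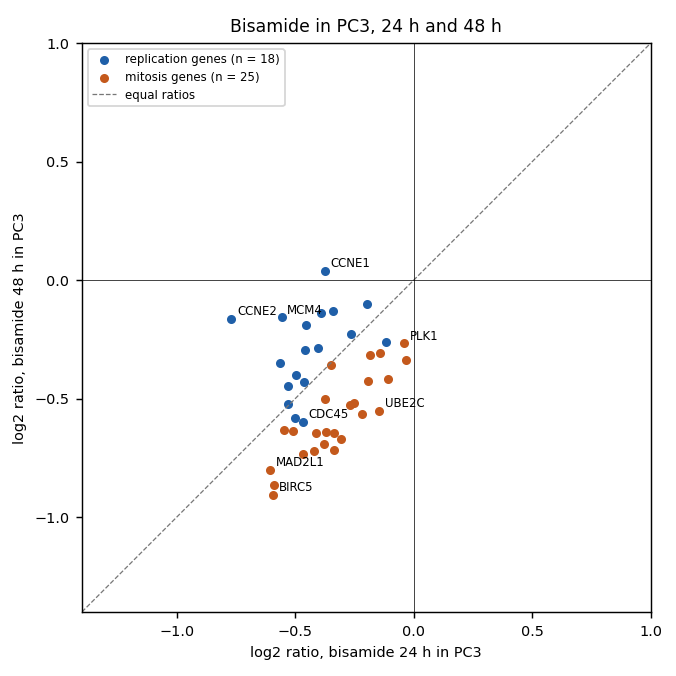
Log2 ratio of treated over mock RNA in PC3 at 24 h (horizontal) and 48 h (vertical) of bisamide for the 18 replication genes (blue) and 25 mitosis genes (orange), with the line of equal ratios dashed. All mitosis genes lie below that line, and 15 of 18 replication genes lie above it, CCNE2 farthest.

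With the miR-532 strands in 786-O, 15 of 17 replication genes and 23 of 25 mitosis genes read lower with miR-532-5p than with miR-532-3p, where 47.4% of all genes did. The median difference was −0.51 for replication and −0.46 for mitosis. The replication genes that went the other way were RRM2 (−0.42 with miR-532-5p and −0.99 with miR-532-3p) and RRM1 (−0.55 and −0.62). The mitosis genes that did were PLK1 and PTTG1, by at most 0.07. The widest gaps were those of CCNE1 (−0.54 and 0.58) and TOP2A (−1.004 and 0.10). With miR-532-3p the replication genes still lay below the mitosis genes, with MCM7 (−0.52), RRM1 and RRM2 below −0.5 and BUB1B (−0.25) as the lowest mitosis gene.

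With the miR-140 strands in T24, all 18 replication genes and 21 of 25 mitosis genes read lower with miR-140-5p than with miR-140-3p, where 53% of all genes did. The median difference was −0.40 for replication and −0.18 for mitosis. The widest replication gap was that of CCNE2 (−0.46 for the 5p and 0.57 for the 3p strand), and UBE2C ran the other way by 1.51 (0.28 and −1.23). The strands of a pair may share their mock culture, and the mock channels of the 786-O arrays differed by a median SD of 0.0224 and those of the T24 arrays by 0.0346 over the members (n = 2 each).

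**Figure D4:**
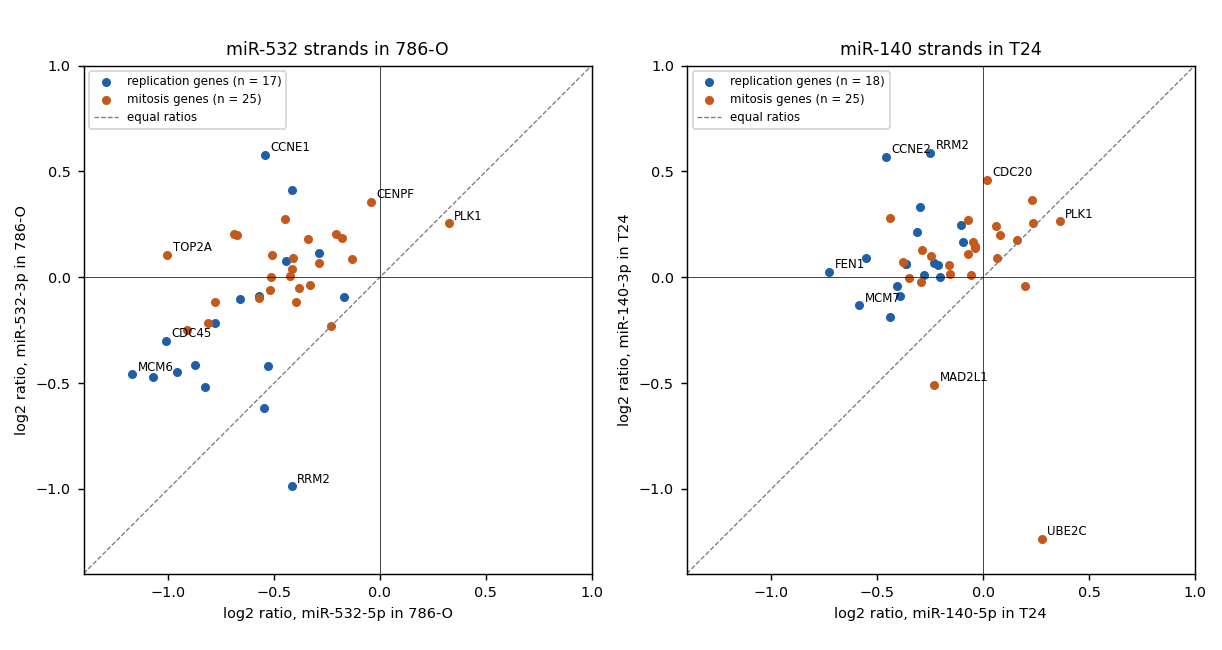
Log2 ratio of treated over mock RNA with the 5p strand (horizontal) and the 3p strand (vertical) of miR-532 in 786-O (left) and of miR-140 in T24 (right), for replication genes (blue) and mitosis genes (orange), with the line of equal ratios dashed. Most points lie above the line, that is, lower with the 5p strand. RRM2 on the left and UBE2C and MAD2L1 on the right lie clearly below it.

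MCM4, MCM7, RRM1, CDC45 and MAD2L1 were below 0 on all 8 arrays, 5 of the 42 members measured on all, against 3.29% of the 12579 genes measured on all. Since treated RNA carried Cy5 on every array, a constant dye effect on these genes cannot be told apart from lower RNA. With median centring and set against all genes, each of the 5 was above 0 on 1 to 3 arrays. When each gene's median over the arrays of other cell lines was taken off, the median replication gene stood at −0.39 with miR-532-5p, −0.15 at 24 h and −0.09 at 48 h of bisamide, −0.03 for miR-140-5p and 0.40 for miR-140-3p in T24, 0.01 for miR-532-3p in 786-O, 0.08 for miR-125b-1-3p in PC3, and 0.32 for miR-199-3p in C4-2.

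Among 11 members with more than 1 probe, 92 comparisons of a further probe with the brightest were possible on the arrays. In none did the probes lie on opposite sides of 0 with either past 0.5. The further probes were dimmer, and many lay nearer to 0.

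Other genes of the same pathways were read from longer lists. Of 52 further replication genes, 8 and 4 were below −0.5 at 24 h and 48 h of bisamide (0.4% and 0.878% of all genes), 22 with miR-532-5p (3.67%) and 7 with miR-140-5p (2.89%), and 0 to 2 on the other arrays, with medians of −0.34, −0.30, −0.40 and −0.26 against all genes on these 4. On 5 arrays the lowest were DSCC1 in PC3 at 24 h of bisamide (−0.65) and under miR-125b-1-3p (−0.55), TK1 at 48 h (−0.74), RPA1 with miR-532-5p (−1.31), and DUT with miR-532-3p (−0.54). RPA1 is a subunit of the single-strand DNA binding complex, TK1 is thymidine kinase and DUT is dUTPase. GINS1, a partner of GINS2, was at 0.78 with miR-199-3p and 0.51 with miR-140-3p.

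Of 63 further mitosis genes, 28 of the 62 measured were below −0.5 at 48 h of bisamide (0.878% of all genes), 6 at 24 h (0.4%), 16 of 60 with miR-532-5p (3.67%) and 6 of 60 with miR-199-3p (2.73%), with medians of −0.49, −0.28, −0.33 and 0.02 against all genes. On the other arrays 0 to 2 were, and none was above 0.5 on any array. The lowest were SMC4, a condensin subunit, at 48 h (−0.84), ZWINT, a kinetochore protein, at 24 h (−0.69) and with miR-532-3p (−0.95), SPC24, also of the kinetochore, with miR-532-5p (−1.12), PRC1, which bundles spindle microtubules, with miR-199-3p (−1.23) and FOXM1 with miR-125b-1-3p (−0.64). FOXM1, a transcription factor of mitosis genes, read −0.21 and −0.49 with bisamide, −0.11, −0.64, −0.49, −0.12, −0.26 and 0.07 on the arrays in order. MYBL2 (B-MYB) read −0.18, −0.30, 0.02, −0.27, −0.38, 0.11, −0.43 and 0.45.

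Upstream of both lists stand the G1 regulators. RB1, the protein that holds E2F factors inactive, read −1.54 with miR-199-3p, −0.55 with miR-532-3p and −0.56 with miR-140-5p, and, on the arrays left, −0.27 at both bisamide times, −0.39 for miR-125b-1-3p in PC3, −0.18 for miR-532-5p in 786-O and −0.19 for miR-140-3p in T24. On the array where RB1 was lowest, the median replication gene differed from all genes by −0.08. The replication genes ranged there from −0.74 (RRM1) to 0.45 (CCNE2, 0.02 on its second probe). A link between RB1 and these values was not tested. CCND1 (cyclin D1) read −0.30, −0.10, 0.52, 0.06, −0.63, 0.37, 0.07 and 0.28 in the order of the arrays, and MYC −0.15, −0.51, 0.41, −0.14, −0.00, 0.35, −0.51 and −0.53. CDK6 was the highest G1 regulator in C4-2 given miR-199-3p (0.70) and in 786-O given miR-532-3p (1.11). Of 22 G1 regulators, no more than 2 were below −0.5 and no more than 2 above 0.5 on any array. The array of miR-199-3p had 2 of 21 measured on each side, where 2.73% of all genes were lower and 1.76% higher.

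CDKN1A (p21), the CDK inhibitor that p53 induces, lay between −0.25 (miR-199-3p) and 0.13 (miR-532-3p) on the 5 arrays of the other lines, and had no usable ratio on the 3 PC3 arrays, bisamide included, where it was not well above background in both channels. Of 24 genes for inhibitors of the cycle and p53 targets, 0 to 3 were below −0.5 and 0 to 4 above 0.5 on an array. The most above 0.5 were 4 of 21 measured with miR-532-3p, against 1.71% of all genes, and the most below −0.5 were 3 of 23 with miR-140-5p, against 2.89%. The highest were SESN2 at 24 h of bisamide (0.70), CDKN1C (p57) in PC3 given miR-125b-1-3p (0.68) and in 786-O under either miR-532 strand (0.75 for 5p, 1.31 for 3p), CDKN2D with miR-140-5p (0.59) and CDKN2C with miR-140-3p (0.67). The lowest were CDKN2C at 24 h and 48 h (−0.58 and −0.54), PKMYT1 with miR-532-5p (−0.86), BBC3 with miR-140-5p (−0.94) and GADD45A with miR-140-3p (−0.84).

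The level of these genes in the mock cells differed between the lines. On the log2 Cy3 scale after quantile normalization, and set against the mean of the 3 PC3 mocks, the median replication gene was at −0.64 in C4-2 (n = 1), 0.14 in 786-O (n = 2) and 0.45 in T24 (n = 2), and the median mitosis gene at −0.46, 0.48 and 0.30. Relative to all genes measured in the mocks, C4-2 stayed lower when the channels were scaled by their median instead (−0.67 and −1.11 for replication, −0.49 and −0.83 for mitosis) and T24 stayed higher (0.44 and 0.31, 0.28 and 0.14). In 786-O the replication genes flipped with that scaling (0.13 and −0.13), and the mitosis genes went from 0.47 to 0.02. In C4-2, 8 of 18 replication genes and 3 of 25 mitosis genes were lower than in PC3 by over 1.0, against 9.02% of all genes, and the lowest were UHRF1 (−2.84), BIRC5 (−2.11) and MCM3 (−1.99). In T24, 5 replication genes and 1 mitosis gene were higher by over 1.0, against 4.37% of all genes, led by CDT1 (1.75), CCNE1 (1.68) and MCM5 (1.49). In 786-O, 2 replication genes and 1 mitosis gene were, against 5.03%, namely MCM4 (1.31), MCM2 (1.04) and CDC20 (1.07). With median scaling these counts became 16 and 18 lower in C4-2 (34% of all genes), 3 and 1 higher in T24 (2.88%), and 0 higher in 786-O (0.887%), where 8 replication and 7 mitosis genes were lower instead (35.6%). BIRC5 was highest in PC3, and lay at −0.86 in 786-O and −1.63 in T24. The mocks of different lines also differ in culture and in the array they were read on, and C4-2 had a single mock.

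**Figure D5:**
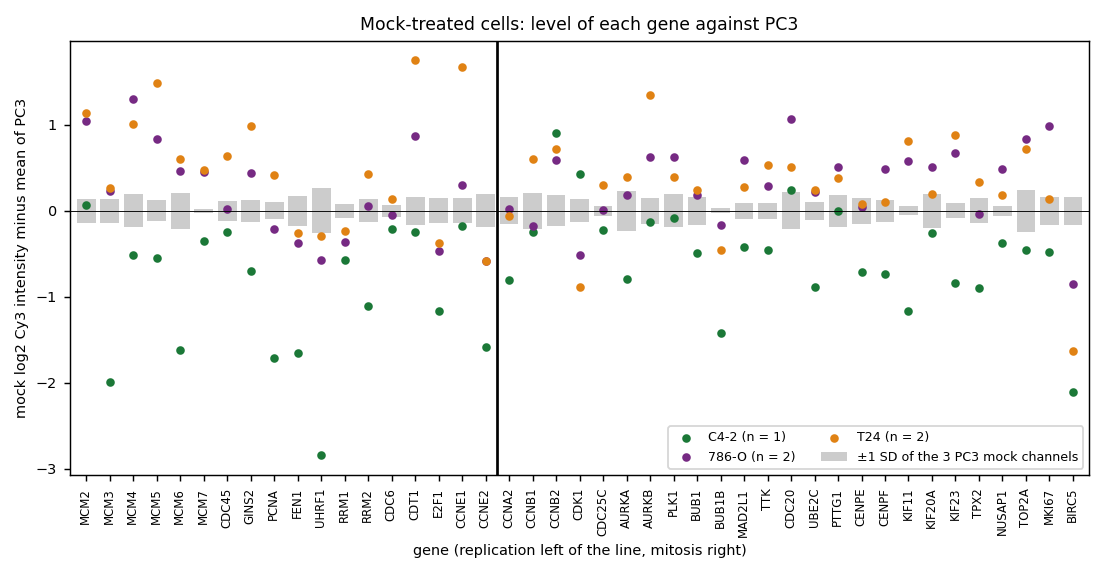
Level of each of the 43 genes in mock cells of C4-2 (green, 1 array), 786-O (purple, 2 arrays) and T24 (orange, 2 arrays), as the mean log2 Cy3 intensity minus that of the 3 PC3 mocks, with grey bars for 1 SD of the PC3 mocks on either side of 0. C4-2 points lie lowest for most replication genes, down to −2.84 for UHRF1, and BIRC5 is below the PC3 level in all 3 lines.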

How the data were processed

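RNA of treated cells (Cy5) and mock cells (Cy3) was hybridised on 8 arrays of 1 slide, read in 1 scan. The authors deposited, per the file headers, the output of Agilent Feature Extraction 11.5.1.1, with spot intensities on a linear scale, a log10 ratio and GRCh37 coordinates. The deposited series table equals that log10 ratio.

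Intensities were corrected with normexp (offset 50) and normalized within arrays by loess in limma 3.58.1 and R 4.3.3. Control spots had no weight in the loess fit, and outlier spots were taken out after it. Tested on simulated data, known changes kept their sign but were pulled towards 0, so folds are understated. A gene was represented by its probe of the highest mean intensity, and a ratio was used where both channels were well above background. By accession, 42 of the 43 genes matched RefSeq under the same symbol. Mock levels are log2 Cy3 intensities after quantile normalization.

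The number of arrays limits the precision. With 1 array a group no test was made, and differences past 0.5 were counted. Members and lists were chosen with earlier results of these data known. The genes named are the 3 lowest and 3 highest per array, a few regulators on every array, and others where a role calls for them. Alternatives were other background corrections, median centring, the scanner's ratio, the series table, other filters and probe rules, a threshold of 1.0, and removal of each gene's median over other lines. Some genes of these lists are not reported here.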

Additional observations from a re-analysis of the deposited data

How the results depend on the processing

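No paired analysis was possible because no group has more than 1 array, and no replicate could be left out. Of 176 list medians under an alternative, 146 moved by less than the median SD of the PC3 mocks (0.144), as did 800 of 1060 values of single genes. The cause of the other moves was not tested. Of 32 counts past 0.5, those within 1.5 times of their first value were 17 under a threshold of 1.0, 24 under the scanner's ratio, 10 under median centring, 15 with the shift of all genes then taken off, and 27 with that of genes of like intensity taken off, the last pair chosen after seeing the data.

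Median centring in place of loess moved the replication median against all genes to −0.19 at 24 h and −0.046 at 48 h of bisamide, −0.013 for miR-125b-1-3p, −0.060 for miR-532-3p, 0.41 for miR-140-3p and, with a turned sign, 0.0087 for miR-140-5p. It moved the mitosis median to −0.069 at 24 h and −0.36 at 48 h, 0.12 for miR-125b-1-3p, 0.28 for miR-532-3p, and in T24 0.25 for the 5p and 0.38 for the 3p strand of miR-140. The comparison with genes of like intensity, chosen after seeing the data, left every list median under that centring within the spread of its loess value. It corrects for intensity much as loess does, so it cannot tell which of the normalizations is nearer the truth.

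Removing each gene's median over arrays of other lines moved the replication median to −0.15 at 24 h and −0.085 at 48 h, 0.32 for miR-199-3p, −0.39 for miR-532-5p, and in T24 −0.025 for the 5p and 0.40 for the 3p strand of miR-140, and turned its sign for miR-125b-1-3p (0.083) and miR-532-3p (0.011). It moved the mitosis median to 0.21 for miR-199-3p, 0.19 for miR-140-5p and 0.33 for miR-140-3p.

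With miR-532-5p the replication median was lower under plain subtraction (−0.94), no background correction (−0.79), an offset of 0 (−0.94), the scanner's ratio (−0.96) and the series table (−0.96), and the mitosis median under plain subtraction and an offset of 0 (both −0.56).

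Single genes past 0.5 turned sign under median centring before the shift of all genes was taken off: MCM7 to 0.13 for miR-532-3p and 0.42 for miR-140-5p, PCNA to 0.29 with miR-140-5p, CCNB1 to 0.13 at 48 h, CDK1 to 0.19 at 24 h, MAD2L1 to 0.072 at 24 h and 0.18 with miR-140-3p, and BIRC5 to 0.40 at 24 h and 0.061 at 48 h. Against the shifted median of all genes, all of these but MCM7 for miR-140-5p (0.066) stayed below 0. MAD2L1 with miR-140-3p turned to 0.17 when its median over other lines was removed.

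Median scaling of the mock channels moved the median replication gene against PC3 to −1.74 in C4-2, 0.16 in T24 and, with a turned sign, −0.85 in 786-O, and the median mitosis gene to −1.46 in C4-2 and, with a turned sign, −0.70 in 786-O and −0.015 in T24, while all genes moved to −0.63, −0.72 and −0.15.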
